A study of Rattus norvegicus with 10 samples.

Results

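Hypertrophic-only N6-methyladenosine (m6A) peaks that lie close to, but do not touch, a peak of quiescent cells are described here. They are candidate extra sites at places where RNA was marked in both conditions. The series profiled m6A, a methylated form of adenosine in RNA, in cultured heart muscle cells of rat pups aged 1 to 3 days. RNA fragments bound by an anti-m6A antibody were sequenced, and stretches enriched in reads over a negative control were called as peaks. The labels list 10 libraries in 5 groups of 2: input RNA and m6A immunoprecipitates of hypertrophic cells, kept in M199 medium with 2% bovine serum; input RNA and m6A immunoprecipitates of quiescent cells, kept in M199 without serum; and immunoprecipitates with normal IgG, from hypertrophic cells. Serum is a general growth stimulus for such cells in culture, so the groups differ in every serum response and not in size alone, and neonatal cells stand in for adult heart muscle. The labels give no strain, sex or pooling of animals, and no marker values of the cells are at hand, since the files hold peaks and no gene counts.

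The deposited values are 1 peak list and 1 summit list for each condition, both called against the negative control by the names of the lists. No spread between replicates can be had from them, and no test between conditions was made. Intervals beside shares (Wilson, 95%) and medians (binomial, over ranks, 95%) cover counting error over peaks of these lists. Neighbouring peaks are not independent, which makes the intervals too narrow. The lists held 65539 hypertrophic and 68440 quiescent peaks.

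The m6A mark is written on nascent RNA by a methyltransferase complex with METTL3 at its catalytic core, can be removed by the demethylases FTO and ALKBH5, and is read by YTH-domain proteins that steer the splicing, translation and decay of the marked RNA. It favours a short sequence context and is best known near stop codons and in long internal exons, and a transcript often carries several sites. In an immunoprecipitation the pileup at a site depends both on the share of molecules methylated and on how much of the RNA is present. A new peak beside an old one can therefore reflect either, and the peak lists do not separate them. The part that transcript abundance played in the results was not tested.

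An adjacent peak, as the term is used here, was chosen by 3 measured values: a hypertrophic peak score of at least 100, no base of overlap with any quiescent peak, and 1 to 5000 bp between its edge and that of the nearest quiescent peak, which is called its partner. The score is the authors' and has the layout of a MACS score, which grows as the peak's p-value falls. Both deposited lists start at 50, so a peak missing from a list is not shown to be absent from the cells. Of 38392 hypertrophic peaks with a score of at least 100, 3644 (9.49%) overlapped no quiescent peak, and 1553 (4.05%) were adjacent peaks. The other 2091 of the 3644 had no quiescent peak within 5000 bp. These shares follow from the rule and are given as a description. The adjacent peaks lay on 21 chromosomes and covered 686 kb. Positions refer to rat build rn4 and are 1-based. Gene names and strand are absent from the peak lists, so whether an adjacent peak and its partner lie on the same transcript was not determined.

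The strongest adjacent peak shows the pattern in its plainest form. Found on chromosome 3 from 42436768 to 42437295, it scored 1141 and had a summit height, the read pileup at its highest base, of 134. After a gap of 135 bp, a quiescent peak from 42437431 to 42437781 with a summit height of 83 matched a hypertrophic peak from 42437429 to 42437778, also 83 high. The neighbouring site was thus present at the same height in both lists, while the taller peak beside it was listed in hypertrophic cells alone. Despite that height, the neighbouring site scored only 63.26 in the quiescent and 55.22 in the hypertrophic list. Both scores lie close to the lowest score of the lists, so the common site was a weak call in each.

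**Figure D1:**
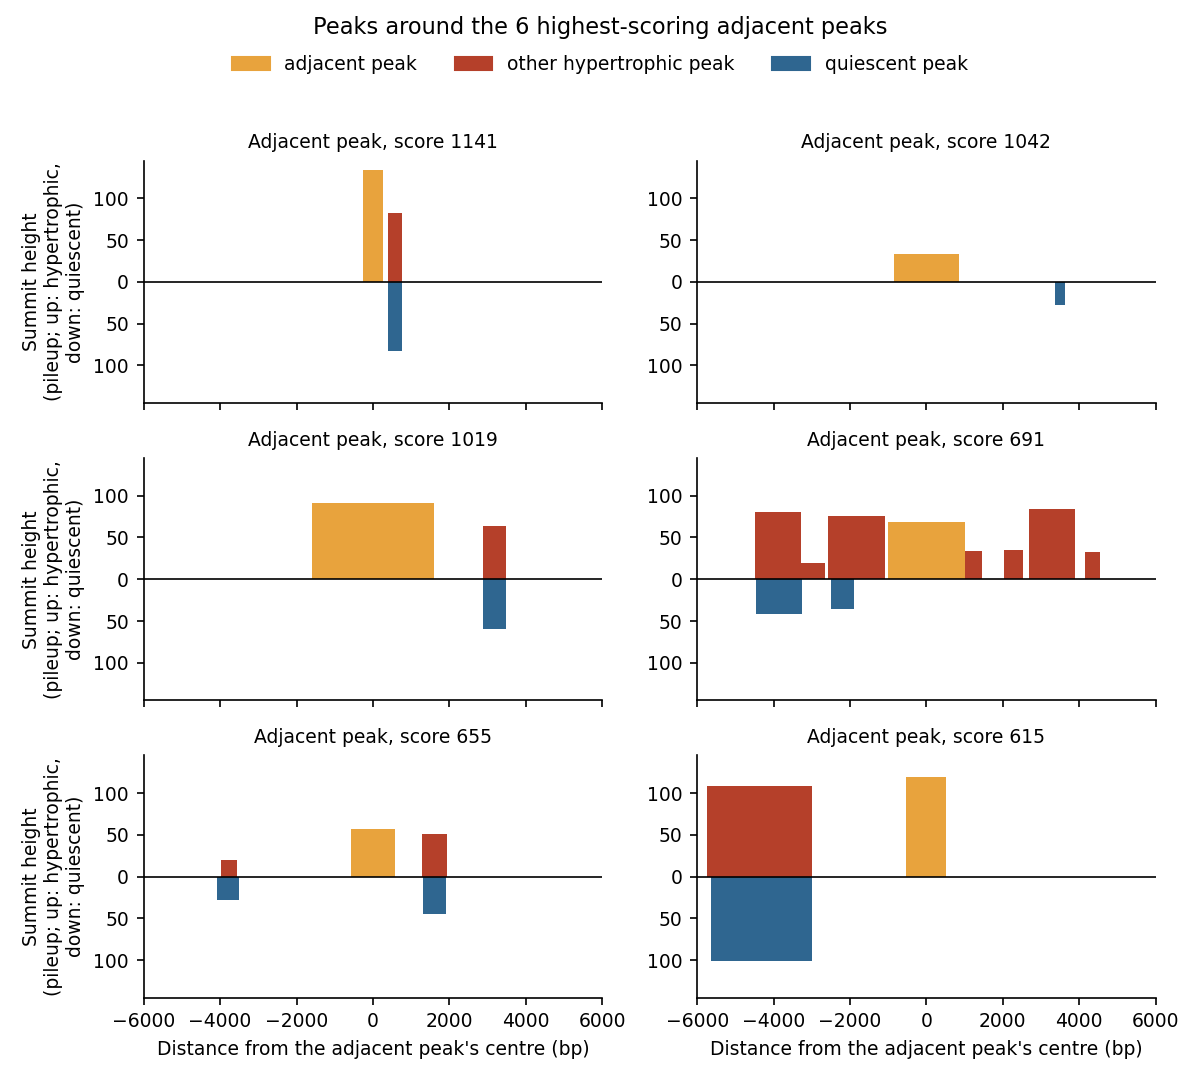
Peaks within 6 kb of the centres of the 6 adjacent peaks with the highest scores. The horizontal axis is the distance from the adjacent peak's centre in bp, each bar spans a peak, and its length is the summit height, upwards for the hypertrophic list and downwards for the quiescent list. In the panel of score 1141 the neighbouring site reaches 83 in both lists, and the panel of score 691 holds 8 hypertrophic peaks against 2 quiescent ones.

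The other adjacent peaks with the highest scores differed in shape and setting. On chromosome 1 from 264486295 to 264488006, a peak of 1712 bp scored 1042 with a summit height of 33. Its partner, 2504 bp away, scored 55.0 and was overlapped by no hypertrophic peak, so each list held a peak there that the other lacked. The adjacent peak on chromosome 2 from 200273491 to 200276684 was broad, with 3194 bp, a score of 1019 and a height of 91. Its partner, 1283 bp away, was 59 high and was matched by a hypertrophic peak of 64. On chromosome 19 from 52509897 to 52511895, a peak of 1999 bp scored 691 and was 69 high. It stood in a crowd of 7 other hypertrophic peaks within 5000 bp, the closest 4 bp away, against 2 quiescent peaks. The partner there was 35 high, and the hypertrophic peak over that partner 76. This locus was therefore taller in hypertrophic cells beyond the adjacent peak itself.

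On chromosome 6 from 126115902 to 126117073, the fifth by score (655) was 57 high, with a partner of 45 at 723 bp. On chromosome 16 from 18530768 to 18531815, a peak of score 615 and height 119 lay 2482 bp from a broad quiescent peak of 2634 bp that scored 1054, the highest partner score among the first 10. Both lists had that broad peak, with heights of 109 in hypertrophic and 101 in quiescent cells. The peak on chromosome 8 from 114254208 to 114255657 scored 604 and was the lower of its pair, 40 high beside a partner of 87 at only 43 bp. On chromosome 6 from 10637137 to 10637709 the reverse held: the peak, of score 562, was 43 high and its partner 6. The remaining pair of the first 10, on chromosome 13 from 72720237 to 72720688 and on chromosome 19 from 25867784 to 25868474, scored 584 and 525 and were close in height to their partners (65 beside 60, and 34 beside 32).

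Such strong cases were few. The median score of the adjacent peaks was 127.8 (interval 126.2 to 129.5), with quartiles of 110.9 and 162.1. Of the 1553, 1062 (68.4%) scored below 150, 199 (12.8%) scored 200 or more and 24 (1.55%, Wilson interval 1.04 to 2.29%) scored 400 or more. As a share of all hypertrophic peaks of a score class, adjacent peaks fell from 11.1% of 5698 peaks between 100 and 120 to 1.72% of 10196 between 200 and 400, and to 0.246% of 9745 between 400 and 3100. Hypertrophic-only peaks at any distance fell in the same way, from 26.7% to 3.68% and 0.472%. The adjacent peak nearest to the score bound, on chromosome 13 from 33068297 to 33068474, scored 100.01 and was 30 high. The highest score that missed the bound was 99.94, on chromosome 8 from 114050391 to 114050624, with a height of 8 and a gap of 1325 bp.

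Summit heights of adjacent peaks ran from 7 to 163, with a median of 16 (interval 16 to 17) and quartiles of 12 and 29. The median was 16 as well for the 2091 hypertrophic-only peaks with no quiescent peak near, and 28 for the 34748 hypertrophic peaks of at least the same score that overlapped a quiescent peak. At equal score the difference from the overlapping peaks was small. Between scores of 100 and 120 the median height was 13 for 632 adjacent and 14 for 4175 overlapping peaks. From 150 to 200 it was 20 and 19, over 292 and 5618 peaks, and from 200 to 400 it was 26 and 27, over 175 and 9821. Adjacent peaks of a given score were thus built on about the pileup usual for that score. From 400 to 3100 the medians were 41.5 for 24 adjacent and 54 for 9699 overlapping peaks. That class is not matched in score: the adjacent peaks in it had a median of 478.4, while the 90th percentile of all overlapping peaks was 977.6. The highest value in either summit list was 164, and 2 adjacent peaks stood above 150, so a possible ceiling on heights touches few of them.

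The tallest adjacent peaks were not the highest-scoring ones. The tallest, on chromosome 18 from 63927869 to 63929443, was 163 high with a score of 160, and its partner at 4596 bp was 80 high. On chromosome 15 from 42426765 to 42427467 the height was 161 and the score 260, with a partner of 129 high at 3635 bp. On chromosome 20 from 21304288 to 21307813 the height was 149 over a width of 3526 bp, with a partner of 138. These 3 had partners that no hypertrophic peak overlapped, and partner scores of 93.0, 80.5 and 97.9. The fourth, on chromosome 2 from 25986056 to 25989076, was 142 high, 315 bp from a partner of 86 that a hypertrophic peak of 113 overlapped. The fifth, on chromosome 1 from 224446687 to 224447897, was 139 high with a partner of 67. In 4 of these 5 pairs no hypertrophic peak overlapped the partner, and all 5 scores were below 300, so height and score ranked the adjacent peaks differently. Control pileups were not analysed here.

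Widths had a median of 347 bp (interval 337 to 355), against 325 bp for the hypertrophic-only peaks farther away and 448 bp for the overlapping ones. At equal score the medians lay close together: 315.5 and 318 bp for adjacent and overlapping peaks between 100 and 120, and 462 bp for both between 200 and 400. Of the adjacent peaks, 15 (0.966%) were wider than 2000 bp, against 1.78% of the overlapping ones.

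Gaps to the partner crowded at the short end. The median gap was 1560 bp, with quartiles of 543 and 3027 bp. There were 85 gaps of up to 100 bp, 273 from 101 to 500 bp, 232 from 501 to 1000 bp, 325 from 1001 to 2000 bp and 638 from 2001 to 5000 bp. The summits of an adjacent peak and its partner were 2011 bp apart in the median and 216 bp apart in the closest pair. The widest gap inside the limit was 4992 bp, of a peak on chromosome 19 from 57222730 to 57223143. The narrowest outside was 5001 bp, of a peak on chromosome 7 from 89479901 to 89480220. Of the overlapping peaks, 50.8% had a further quiescent peak within 5000 bp that they did not touch, at a shorter median gap of 1266 bp (interval 1232 to 1293 bp, against 1430 to 1672 bp for adjacent peaks). Among hypertrophic-only peaks above the same score bound the share with a quiescent peak that close was 42.6%. The sets share the bound and not the score, since overlapping peaks had a median score of 235.0.

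**Figure D2:**
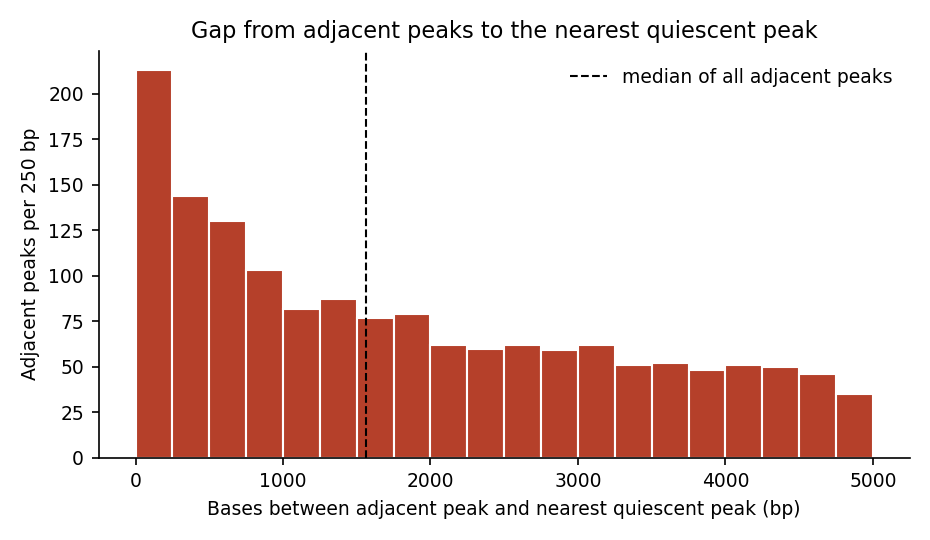
Number of adjacent peaks per 250 bp of gap to the nearest quiescent peak, in bp, with the median of 1560 bp as a dashed line. Numbers are highest in the first bin and decline more slowly beyond about 2000 bp.

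The shortest gaps among the stronger adjacent peaks show what abutting pairs look like. With a score of at least 200, the smallest gap was 13 bp, on chromosome 3 from 107468802 to 107469809, where a peak 33 high ended beside a partner of 40. On chromosome 14 from 46123551 to 46124113 the gap was 38 bp and the heights 22 and 18. On chromosome X from 159095985 to 159096378 the gap was 40 bp and the heights 22 and 12. On chromosome 11 from 32342234 to 32342939 the gap was 42 bp and the heights 26 and 33. The fifth was the peak of score 604 on chromosome 8 given above. A hypertrophic peak overlapped the partner in all 5, so the hypertrophic list held both the adjacent peak and a peak at the partner's place.

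Partners were ordinary quiescent peaks. Their median score was 123.5 (interval 116.2 to 131.1), where the whole quiescent list had 126.5, and 59.2% of them scored at least 100, against 60.3% of the list. Their median height of 16 equalled that of the list, and their median width was 349 bp, against 342 bp. Scores from 50 to below 60, nearest to the floor, were held by 11.8% of partners and 10.7% of the list. The partner score also hardly moved with the score of the adjacent peak, from 122.2 beside peaks of 100 to 120 to 128.1 beside peaks of 200 to 400 and 140.1 beside the 24 of 400 or more. The 1553 adjacent peaks had 1497 different partners. Of these, 48 partners were shared by 2 adjacent peaks and 4 by 3.

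Most partners were also held by the hypertrophic list. A hypertrophic peak overlapped 1291 of the 1553 partners (83.1%, Wilson interval 81.2 to 84.9%), against 71.0% of all quiescent peaks (interval 70.6 to 71.3%). The nearest untouched quiescent neighbours of overlapping hypertrophic peaks came close, at 79.0% (interval 78.4 to 79.6%). In the mirrored set, quiescent-only peaks of a score of at least 100 beside a hypertrophic peak, 1626 of 1936 neighbours had a match (84.0%), so the share was not particular to adjacent peaks. When only an overlap of 50% of the hypertrophic peak counted as overlap, the share was 57.4%. For the 1553 adjacent peaks, the share of matched partners was above that of the list in each class of partner score. It was 67.7% against 49.0% for partner scores of 50 to 100, 88.2% against 75.2% for 100 to 200, 96.9% against 88.7% for 200 to 400, and 98.8% against 97.3% for 400 to 3100. Most adjacent peaks thus lay beside a site that both conditions shared. The rule fixed where the adjacent peaks lie but not whether their partners had a match.

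The 262 adjacent peaks whose partner had no hypertrophic match differed from the others mainly in the partner. Here each list held a peak that the other list lacked. Their own scores and heights were near those of the 1291 others, with medians of 125.9 and 15 against 128.6 and 17. Their partners were weak, with a median score of 68.0 and height of 9, against 149.4 and 19 for matched partners. Of all quiescent peaks scoring 50 to 100, only 49.0% had a hypertrophic match. The gap did not set them apart: its median was 1554 bp, against 1561 bp, and 19.8% against 23.6% of gaps were under 500 bp.

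The height of an adjacent peak relative to its partner varied widely. The partner was the lower of the pair in 853 cases (54.9%), equal in 44 and the higher in 656 (42.2%). The median log2 ratio of the adjacent peak's height to that of the partner was 0.21 (interval 0.13 to 0.28), with quartiles of -0.72 and 0.91. The adjacent peak was at least 2-fold higher in 365 pairs (23.5%) and at least 2-fold lower in 313 (20.2%). For overlapping hypertrophic peaks set against their nearest untouched quiescent neighbour, these shares were 39.1% and 11.7% of 17653 pairs. This background is of stronger peaks, and at equal score the ratios were alike: 0 for both between 100 and 120, 0.18 and 0.13 between 120 and 150, 0.42 and 0.29 between 150 and 200, and 0.62 and 0.60 between 200 and 400. From 400 to 3100 the adjacent peaks had 0.26 and the overlapping peaks 1.32, over 24 and 5442 pairs, in a class that is again not matched in score. The sign of the overall median followed the score bounds. It was -0.29 with all hypertrophic peaks from a score of 50, and -0.26 when only quiescent peaks of at least 100 were used.

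**Figure D3:**
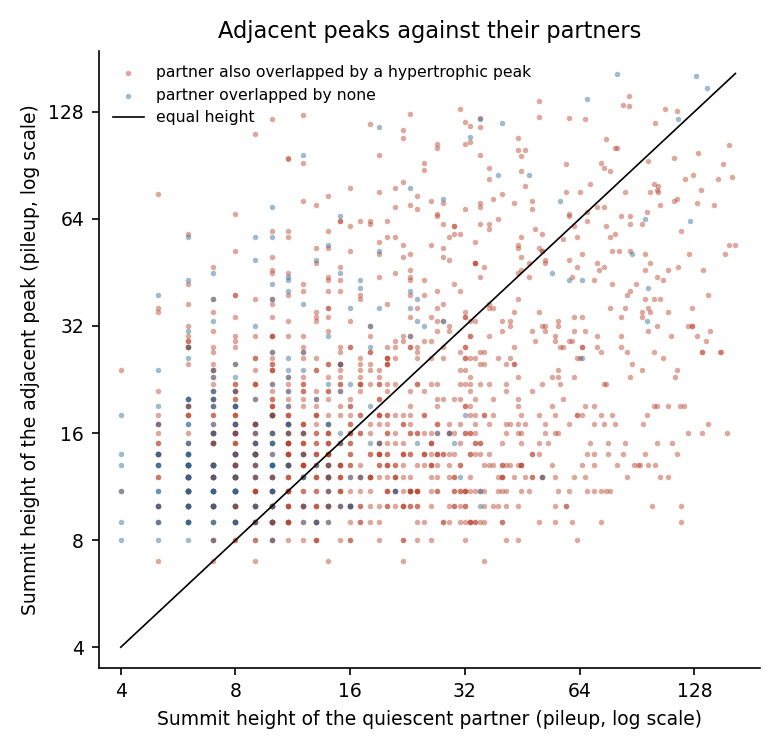
Summit height of each adjacent peak (vertical axis, log scale) against that of its quiescent partner (horizontal axis, log scale), with a line of equal height. The 1553 pairs scatter on both sides of the line, and the 262 pairs whose partner had no hypertrophic match gather at low partner heights, with a median of 9.

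The extremes of that ratio mark opposite settings. The adjacent peak on chromosome 5 from 155662331 to 155662794 was 75 high and its partner 5, a 15-fold difference, and the hypertrophic peak over that partner was 21. On chromosome 1 from 193578523 to 193579198 the heights were 111 and 9, and on the same chromosome from 208099477 to 208100126 they were 122 and 10. On chromosome 3 from 142728179 to 142730106 they were 125 and 12, and on chromosome 6 from 97921691 to 97922162 they were 58 and 6. In all 5 the hypertrophic peak over the partner was also higher than the partner, with heights of 21, 15, 31, 24 and 10 against 5, 9, 10, 12 and 6. The choice of these pairs favours low partners, and 77.5% of all matched partners had a taller hypertrophic peak, so this is a description of the loci only.

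At the other end, small hypertrophic-only peaks stood beside tall sites common to both lists. On chromosome 18, adjacent peaks from 161680 to 162205 and from 158533 to 159020 were 9 and 10 high. They flanked a single partner of 118, whose hypertrophic match was 136. On chromosome 6 from 133178310 to 133178585 the height was 10 beside a partner of 99 that scored 3100. On chromosome 13 from 105113302 to 105113760 the heights were 16 and 156, and on chromosome 7 from 114339131 to 114339567 they were 12 and 109. The matching hypertrophic peaks were 121, 159 and 121 high, each above its quiescent partner.

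Within the hypertrophic list alone, where both heights come from the same file, the adjacent peak was mostly the lesser of the pair. Against the tallest hypertrophic peak over the partner, here called the companion, it was lower in 800 of 1291 cases (62.0%, interval 59.3 to 64.6%), equal in 32 and higher in 459 (35.6%). The median log2 ratio was -0.40 (interval -0.46 to -0.32). No such ratio is given for overlapping peaks, so whether it is particular to adjacent peaks was not tested. Companions had a median score of 210.7 and a median height of 26, against 128.6 and 17 for the adjacent peaks beside them. By score of the adjacent peak the ratio was -0.50 between 100 and 120, -0.49 between 120 and 150, -0.22 between 150 and 200 and -0.02 between 200 and 400, and it was -0.13 for the 21 of 400 or more.

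The sites common to both lists were themselves taller in hypertrophic cells when they lay beside an adjacent peak. The median log2 ratio of companion to partner height was 0.35 (interval 0.32 to 0.38, 1291 pairs), against 0.16 (interval 0.16 to 0.17) for all 48585 quiescent peaks that a hypertrophic peak overlapped. The companion was the taller in 77.5% of pairs, against 63.2%. It was at least 2-fold taller in 175 pairs (13.6%, interval 11.8 to 15.5%), where the background over all such sites was 6.45%. It was at least 2-fold lower in 15 pairs (1.16%, interval 0.705 to 1.91%), against a background of 4.0%. The quiescent neighbours of overlapping hypertrophic peaks had 0.18, 6.84% and 2.28% for the same measures. These heights carry no stated scaling, so the values beside adjacent peaks are read against the 0.16 of all sites and not against 0. They come from the same lists that chose the adjacent peaks and are a description, with no test.

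**Figure D4:**
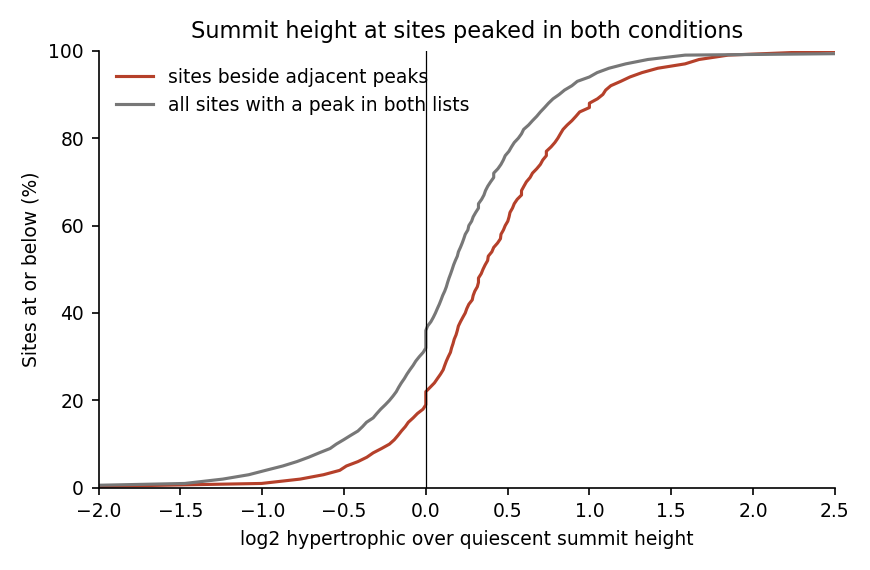
Cumulative share of sites (vertical axis, %) by log2 hypertrophic over quiescent summit height (horizontal axis), for the sites beside adjacent peaks and for all sites with a peak in both lists. The curve of sites beside adjacent peaks lies to the right, with a median of 0.35 against 0.16.

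The difference held in each class of partner score. For partner scores of 50 to 100 the median log2 ratio was 0.56 beside adjacent peaks and 0.42 over all such sites, and for 100 to 200 it was 0.34 and 0.16. For 200 to 400 it was 0.24 and 0.06, and for 400 to 3100 it was 0.20 and 0.01. The intervals of the paired values did not overlap in any of the 4 classes. Over the 5 classes of gap the ratio lay between 0.31, at 1001 to 2000 bp, and 0.46, at 101 to 500 bp. By score of the adjacent peak it was 0.32 between 100 and 120, 0.36 between 120 and 150, 0.42 between 150 and 200 and 0.35 between 200 and 400. For the 21 of 400 or more it was 0.20, with an interval from 0 to 0.67 that takes in the value of all sites.

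With distance from the nearest adjacent peak the ratio declined, though not evenly. Common sites within 1 kb had a median log2 ratio of 0.38 (interval 0.33 to 0.45, 559 sites), those from 1 to 2 kb 0.29, those from 2 to 5 kb 0.33, those from 5 to 10 kb 0.26, those from 10 to 20 kb 0.23 and those from 50 to 100 kb 0.19 (interval 0.17 to 0.20, 3772 sites). The share at least 2-fold taller in hypertrophic cells went from 15.6% within 1 kb to 9.21% at 5 to 10 kb and 6.84% at 50 to 100 kb, the last near the background of 6.45%. Around the hypertrophic-only peaks with no quiescent peak near, common sites at 5 to 10 kb had 0.28 and at 50 to 100 kb 0.19. The decline was therefore not particular to the adjacent peaks as far as these distances show.

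The mirrored set moved the other way. Of 41281 quiescent peaks with a score of at least 100, 6016 (14.6%) overlapped no hypertrophic peak, and 1936 of these lay 1 to 5000 bp from a hypertrophic peak. Common sites within 1 kb of these had a median log2 hypertrophic over quiescent ratio of -0.12 (interval -0.18 to -0.06, 742 sites), and 13.1% were at least 2-fold lower in the hypertrophic list. At 2 to 5 kb the ratio was 0.08, and at 50 to 100 kb it was 0.16, equal to that of all sites. At 1 to 2 kb the median was 0 (interval -0.04 to 0.03). Only within 1 kb was the median below 0. Read against the 0.16 of all sites, the medians were lower in each distance class up to 5 kb, the range of the rule. The mirrored peaks' own nearest neighbours formed 1626 common sites. These are counted from the hypertrophic side, and the 0.35 beside adjacent peaks from the quiescent side. Their median was -0.04 (interval -0.07 to 0), and 11.4% were at least 2-fold lower. Over all 48600 hypertrophic peaks that a quiescent peak overlapped, the median was 0.15. Both comparisons use the same 2 lists and the same IgG control from hypertrophic cells.

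**Figure D5:**
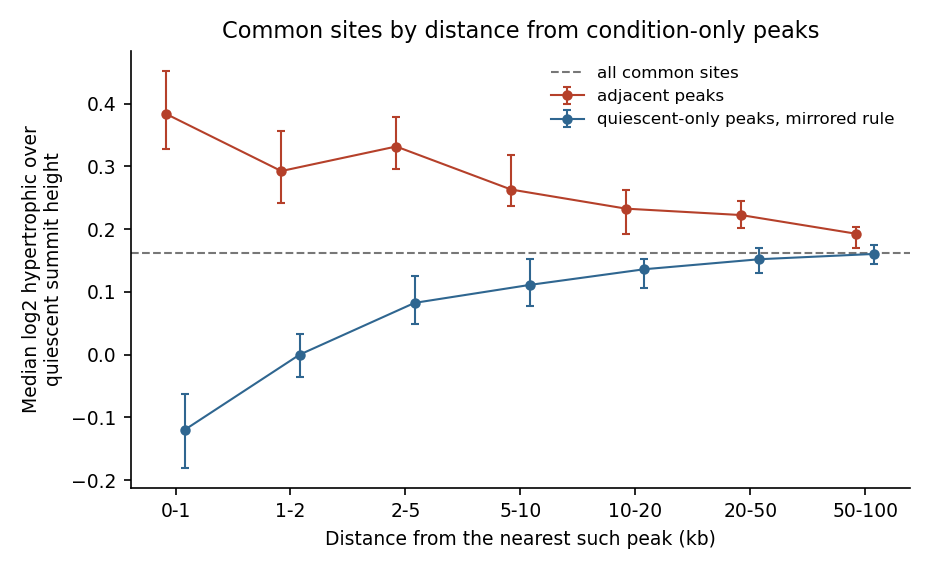
Median log2 hypertrophic over quiescent summit height (vertical axis) of sites with a peak in both lists, by distance in kb from the nearest adjacent peak or from the nearest quiescent-only peak of the mirrored rule. Bars are 95% rank intervals, and the dashed line is the 0.16 of all such sites. The medians lie at 0.38 and -0.12 within 1 kb and at 0.19 and 0.16 at 50 to 100 kb.

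Most adjacent peaks had a neighbour in their own list too. Another hypertrophic peak lay within 5000 bp of 1400 of them (90.1%, interval 88.6 to 91.5%), against 52.9% of the overlapping peaks and 21.5% of the hypertrophic-only peaks farther away. In the mirrored quiescent-only set the share was 90.6% (1754 of 1936). In 847 cases (54.5%) it was nearer than the partner. Since most partners have a companion, a quiescent peak within 5000 bp brings a hypertrophic one with it, and the share of 90.1% partly follows from the rule. A single quiescent peak lay within 5000 bp of 1022 adjacent peaks (65.8%), and 55 (3.54%) had 4 or more. Quiescent peaks stood on both sides of 299 (19.3%). Over all overlapping peaks the share was 12.4% (4322 of 34748). Only 17653 of those 34748 had a further quiescent peak within 5000 bp, which the rule gives to every adjacent peak. The shares are thus not like for like and do not set adjacent peaks apart. Setting the adjacent peak itself aside, 882 windows (56.8%) held equal numbers of hypertrophic and quiescent peaks, 364 (23.4%) more hypertrophic and 307 (19.8%) more quiescent ones. Equal numbers do not show that the positions matched. The shares by number of peaks in the window were not compared with those of other peaks, so they are a description.

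The density of quiescent peaks fell from 0.285 per kb within 250 bp of an adjacent peak to 0.183 at 500 to 1000 bp and 0.130 at 3000 to 5000 bp. Inside 5000 bp the rule itself raises this density. Around overlapping peaks the density also fell, from 0.173 to 0.111 and 0.0689 per kb over the same distances. Beyond the limit of the rule, at 5 to 10 kb, it was 0.0657 per kb around adjacent peaks, close to the 0.0611 around overlapping peaks. The hypertrophic density around adjacent peaks went alongside, at 0.349, 0.184, 0.135 and 0.0749 per kb. Partners lay to the higher-coordinate side in 764 cases (49.2%, interval 46.7 to 51.7%). Since strand is absent from the lists, this cannot show whether partners lay upstream or downstream along a transcript. The summit of the adjacent peak lay on the partner's side of its own midpoint in 722 cases (46.5%, interval 44.0 to 49.0%), and in 75 of 178 (42.1%, interval 35.1 to 49.5%) with gaps of up to 200 bp. With gaps over 1000 bp the share was 46.1% (444 of 963), so it did not depend clearly on closeness to the partner. For overlapping peaks and their untouched neighbours the share was 50.6%.

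Of the 1553 adjacent peaks, 121 (7.79%) lay within 5000 bp of another. Whether that is more or less than for other peaks was not tested. Joined where no more than 5000 bp separated them, the adjacent peaks fell into 1488 loci, of which 56 held more than 1. The locus with the most was on chromosome 1 from 82239272 to 82250492, with 4 adjacent peaks of scores 200.2, 156.8, 118.9 and 308.1 and heights 32, 19, 36 and 31. Its 11221 bp contained 7 hypertrophic and 2 quiescent peaks. The stronger common site there was 127 high in hypertrophic and 102 in quiescent cells, and the weaker one 10 and 14. Of 7 loci with 3 adjacent peaks, the longest 2 are described. On chromosome 2 from 44622143 to 44630128, 3 adjacent peaks of heights 18, 27 and 38 shared 1 partner of 10, whose companion was 36. Within 5000 bp of that locus there were 5 hypertrophic peaks and 1 quiescent peak. On chromosome X from 159093546 to 159100504, 3 adjacent peaks of heights 24, 22 and 13 alternated with common sites, and with 5000 bp added on either side the locus held 6 hypertrophic and 5 quiescent peaks. The quiescent peaks starting at 159088147, 159092990 and 159095429 were each 516 bp wide. Whether sequence is repeated there was not tested.

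Adjacent peaks were spread over the chromosomes much as the hypertrophic peaks of their score were. As a share of those peaks they ranged from 3.17% on chromosome 9 (interval 2.41 to 4.16%) to 5.40% on chromosome 11 (interval 4.23 to 6.88%), around 4.05% in all. Chromosome 8 had 5.24% (109 of 2082, interval 4.36 to 6.28%). The intervals of chromosomes 8 and 11 lay above the share in all and did not meet that of chromosome 9. With 21 chromosomes compared and no test, this is a description.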

How the data were processed

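MeRIP-seq peak lists of neonatal rat cardiomyocytes were used, 1 per condition. Per the submitters' processing notes, the authors used CASAVA 1.8, TopHat, MACS 1.4 and build rn4. Parameters, and any pooling of the 2 immunoprecipitates of a condition, are not given in the sources used here. Each peak carries a deposited score in the layout of MACS, and the deposited summit height is a pileup signal in whole numbers with no scaling stated. Read depth is unknown. 0 columns of values were left out. Input libraries were not analysed here.

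Gaps count the bases between facing edges. They were checked against bedtools 2.31.1 and tested on simulated lists. Python 3.11.15, numpy 2.4.6, pandas 2.3.3, scipy 1.17.1 and matplotlib 3.10.9 were used. The text names the 10 highest scores, the 5 tallest, the 5 highest and 5 lowest height ratios, the 5 smallest gaps at scores of 200 or more, peaks at the bounds, and the 3 loci with most members (ties by length, longer first, a tie-break added later). The peak set and these rules were chosen with earlier results of these data known, and the height ratio at common sites was added after seeing the data. Sequences and gene names were not used here, since no rn4 genome was at hand.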

Additional observations from a re-analysis of the deposited data

How the results depend on the processing

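No paired analysis was possible because each condition has 1 peak list, with no values per replicate; for the same reason leaving out a replicate was not run. A score bound of 50 gave 7035 peaks with a median score of 70.2, height of 11 and width of 271 bp, a log2 ratio to the partner of -0.29, which reverses the sign, 80.6% matched partners, 50.5% with another hypertrophic peak nearer, and a common-site ratio of 0.30. A bound of 200 gave 199 peaks, 247.9, 28, 509 bp, a gap of 1705 bp, 0.57, 86.4%, 14.6% with quiescent peaks on both sides, and 58.8% with another hypertrophic peak nearer. A distance limit of 1000 bp gave 590 peaks, a width of 369 bp, a gap of 375.5 bp, a partner score of 115.3, a log2 ratio of 0.29, 8.14% with both sides, and a common-site ratio of 0.39. A limit of 10000 bp gave a gap of 2714 bp and 30.1% with both sides, and a minimum gap of 100 bp a gap of 1683 bp. Leaving out only hypertrophic peaks overlapped over 50% or more of their width gave 2310 peaks, some partly overlapping their partner. They had a score of 142.5, height of 18, width of 414 bp, gap of 558.5 bp and ratio of 0.42. Of them, 57.4% had a partner matched by another hypertrophic peak, 17.3% had both sides and 36.7% had another peak nearer. Using quiescent peaks of score 100 or more gave 2861 peaks, a score of 134.3, height of 18, gap of 1762 bp, partner score of 228.4, ratio of -0.26, which reverses the sign, 93.9%, 13.0% and 59.8% for the same shares, and a common-site ratio of 0.22, where all such sites had 0.08. Nearest summits in place of edges, leaving out widths over 2000 bp and counting 1 adjacent peak per partner moved none of the 11 values beyond its interval, nor did single overlaps only, run for the common-site ratio alone; the last 2, and the common-site ratio throughout, were chosen after seeing the data. The causes of these shifts were not tested. With 1 list per condition and unknown read depth, differences between conditions have no replicate error here.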
